A study of Mus musculus with 6 samples.

Results

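LINE-1 repeats accounted for 106 of the 1217 repeat names counted in RNA of E10.5 mouse embryos, and comprised every name that starts with L1 or Lx. The 6 names that start with L1Md were taken as young, namely L1Md_A, L1Md_F, L1Md_F2, L1Md_F3, L1Md_Gf and L1Md_T. The other 100 were taken as old, among them 16 Lx names, 4 L1_Mus names, 8 names of the L1_Mur, L1_Mm, L1_Rod and L1VL kind, 70 L1M names and 2 L1P names. Letter case was kept, so that names starting with L1MD in capitals stand among the old L1M names. The names were chosen by spelling alone, without use of any measured value.

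The libraries were made from polyadenylated RNA of whole embryos on a mixed C57BL/6 CD1 129 background, 3 knockout and 3 control. Knockout embryos were H3f3afl/- and H3f3bfl/-, and control embryos were H3f3afl/+ and H3f3bfl/+. H3f3a and H3f3b both encode histone H3.3, the form of histone H3 that is placed into chromatin independently of DNA replication. All 6 embryos were also Trp53-/-, and so without the tumour suppressor p53, and Sox2-CreTg/0, a transgene whose recombinase acts in the epiblast, from which the embryo proper forms. The floxed alleles of the controls were therefore open to deletion as well, and no group had intact H3.3 genes or p53.

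LINE-1 is the autonomous retrotransposon of mammals. A full-length copy carries its own promoter and encodes an RNA-binding protein and a protein with endonuclease and reverse transcriptase activity, which copy its RNA back into the genome. In the mouse, copies that can still move belong to the A, T and Gf subfamilies of L1Md, while F is an older type of promoter. The Lx and L1M copies are remnants of earlier waves, mostly truncated and lying in introns or between genes, where transcripts that start elsewhere can run through them. H3.3 and its chaperones Atrx and Daxx have been placed at silent retrotransposons in mouse embryonic stem cells.

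Each library had 24952853 to 30461689 counts in genes and 75955 to 151591 counts in LINE-1 names. H3f3a, the targeted gene with the larger loss, had 1818, 1744 and 1996 counts in the knockouts, against 9851, 10775 and 9685 in the controls. H3f3b had 12164, 13626 and 11431 counts in the knockouts, against 19717, 21379 and 18942 in the controls. All 12 genes taken as markers of the embryo proper reached 1 CPM (counts scaled to 1000000 of the library, with TMM factors for genes) in every library. Of 10 extraembryonic markers 2 did, the trophoblast genes Tpbpa and Prl2c2 had 0 counts throughout, and the summed level of the 10 was 5.39 to 6.89 CPM in knockouts and 5.73 to 7.03 CPM in controls. Afp, Hbb-bh1 and Hba-x, among the 12, are not particular to the embryo proper.

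Old LINE-1 counts were high in knockouts 1 and 3 and not in knockout 2. Counts of repeats were divided by the gene count total of the same library and given per 1000000, below called gene-scaled CPM. The old names summed to 4759, 2267 and 4682 gene-scaled CPM in the knockouts, against 2010, 2421 and 3142 in the controls. Knockout 2 lay between control 1 and control 2, so the groups overlapped, and the ratio of the means was 1.55 (3903 ± 1417 in knockouts and 2524 ± 573 in controls, SD, n = 3 each). The young names summed to 860, 466 and 757 in the knockouts, against 617, 585 and 660 in the controls, and again knockouts 1 and 3 were above every control while knockout 2 was below all of them. In bulk RNA of whole embryos, a change in the number of cells that carry a transcript and a change of its level per cell cannot be told apart.

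The same libraries that were high in LINE-1 were high in reads assigned to no gene, here called reads outside genes. The gene annotation used in counting is not given, so reads in introns may be among them. Scaled in the same way, the reads outside genes came to 303880, 149824 and 294906 in the knockouts, against 146211, 161469 and 201307 in the controls. The ratio of means was 1.47. The groups overlapped, and a two-sided exact permutation test gave p = 0.3, where the smallest possible with 3 against 3 is 0.1. Set against the reads outside genes of its own library, the LINE-1 signal was nearly constant: all LINE-1 names together took 18.5, 18.2 and 18.4 per 1000 such reads in the knockouts, and 18.0, 18.6 and 18.9 in the controls. The highest library was 1.05 times the lowest on this scale, against 2.14 times in gene-scaled CPM. Repeat counts and reads outside genes come from the same libraries, and a LINE-1 read assigned to no gene may be counted in both. Whether both were counted from the same alignments was not examined. The 2 measures therefore cannot be taken as independent.

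**Figure D1:**
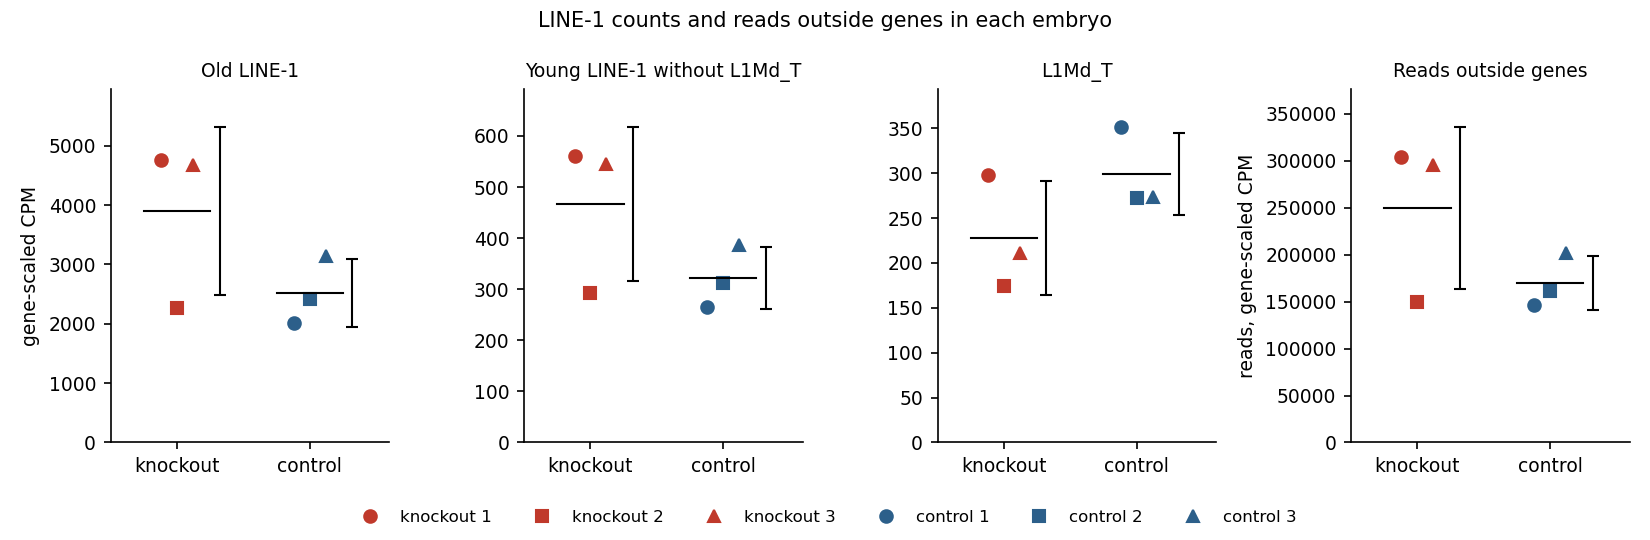
Gene-scaled CPM (counts per 1000000 gene counts of the same library) of old LINE-1, young LINE-1 without L1Md_T, L1Md_T and the reads outside genes in 3 knockout and 3 control embryos. Points are libraries, lines are means and bars are SD; knockouts 1 and 3 stand above all controls and knockout 2 among the controls in every panel but that of L1Md_T, where knockouts are at 174 to 298 and controls at 272 to 352.

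The old names kept to this pattern as a class. Per 1000 reads outside genes they took 15.7, 15.1 and 15.9 in the knockouts, against 13.7, 14.99 and 15.6 in the controls, with overlapping groups and a ratio of means of 1.05. Over the 96 LINE-1 names with enough counts to be tested, the median library value relative to the control mean was a log2 difference of 0.99 in knockout 1, -0.17 in knockout 2 and 0.97 in knockout 3. The same medians were -0.36 in control 1, -0.08 in control 2 and 0.33 in control 3. Control 3, which had the most reads outside genes among the controls, was thus also the highest control in LINE-1.

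Other repeats did the same. Short interspersed repeats (SINE, 21 names) had 18772, 9393 and 19830 gene-scaled CPM in the knockouts, against 8639, 10474 and 13003 in the controls. MaLR retrotransposons (102 names) had 3012, 1631 and 2970 in the knockouts, against 1515, 1768 and 2150 in the controls. The long-extinct LINE-2 and LINE-3 elements (6 names) had 1453, 1076 and 1472 in the knockouts, against 1015, 1079 and 1225 in the controls. In each class knockouts 1 and 3 exceeded all controls and knockout 2 did not. Per 1000 reads outside genes, LINE-2 and LINE-3 took 4.78, 7.18 and 4.99 in the knockouts against 6.94, 6.69 and 6.08 in the controls. Their counts were thus lower in knockouts 1 and 3 on this scale, where the old LINE-1 names were not.

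**Figure D2:**
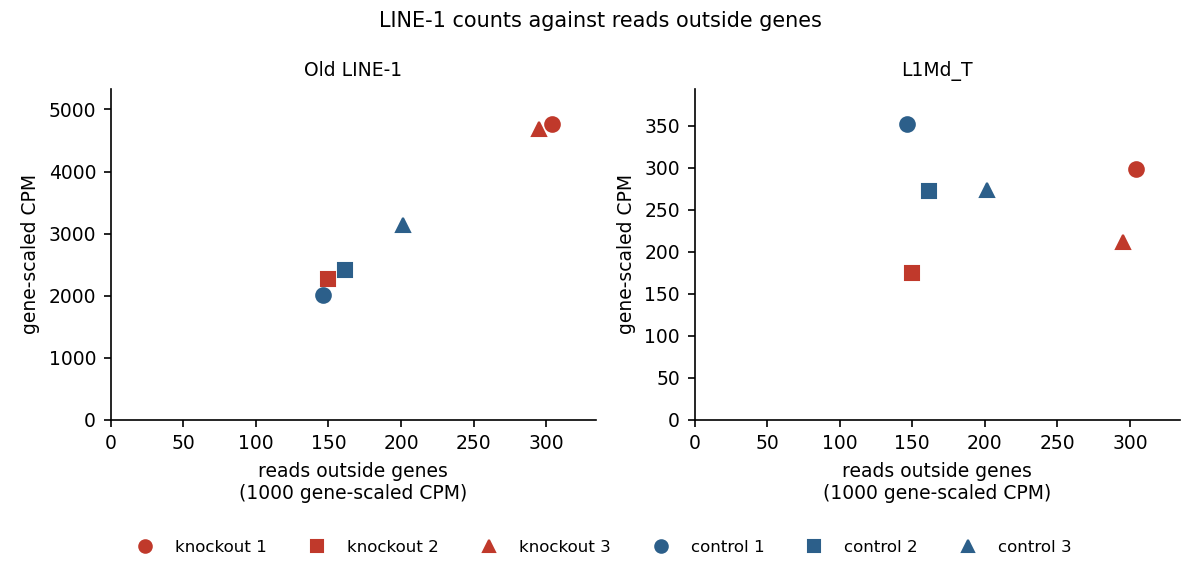
Gene-scaled CPM of the old LINE-1 names and of L1Md_T (vertical axes) against the reads outside genes, in units of 1000 gene-scaled CPM (horizontal axes), with 1 point per library. Old LINE-1 lies close to a straight line through all 6 libraries, while L1Md_T does not follow it. Knockout 2 and control 1, with nearly the same reads outside genes, have 174 and 352 gene-scaled CPM of L1Md_T, and control 2 has 272. These are single libraries, set side by side after their values were seen.

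No LINE-1 name passed the test. At an adjusted p under 0.05, edgeR called 0 of 96 LINE-1 names, and 0% of the 853 repeat names tested. At an unadjusted p under 0.05 it had 10 of 96 LINE-1 names higher in knockouts, all of them old, against a background of 11.6% of all names, and 0 lower. DESeq2 called 0 LINE-1 names, against 0.234% of all names, and had 39 at an unadjusted p under 0.05, against 23%. limma-voom called 0 of LINE-1 and 0% of all names, and had 5 LINE-1 names at an unadjusted p under 0.05, against 6.68%. The 10 names not tested were all old and had at most 52 counts over the 6 libraries. Most fold changes were above 0 (knockout over control), 95 of 96 among LINE-1 names, against 94.1% of all names. The median log2 fold change was 0.70 over the LINE-1 names, 0.52 over the young and 0.71 over the old, against 0.54 over all repeat names. Scaled by reads outside genes instead of gene totals, the median of all names moved to 0.01, that of the old names to 0.15 and that of the young names to -0.02, with 73 of 96 LINE-1 names above 0 against 51.2% of all names, so the sign of the young median depends on the scaling.

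Knockout 2 decided whether LINE-1 names were called. Without it, edgeR called 90 of 98 LINE-1 names as higher, 4 of 6 young and 86 of 92 old, against a background of 63.9% of 895 names. The median log2 fold change of the LINE-1 names was then 1.00, against 0.80 over all names, and the 2 remaining knockouts are those with the most reads outside genes. Among the young names, L1Md_Gf and L1Md_T were the 2 not called without knockout 2. The number of LINE-1 names at an unadjusted p under 0.05 was 1 without knockout 1 and 1 without knockout 3, against 1.51% of all names in each fit. It was 0 without control 1, against 1.24% of all names, and 1 without control 2, against 2.14%. Without control 3 it was 44, against 24.8% of all names. With the reads outside genes as a covariate, 1 LINE-1 name was called, Lx3C (log2 fold change 0.45 ± 0.10, SE, adjusted p = 0.00924 by edgeR), against a background of 1.06% higher. The adjusted p of Lx3C was 0.00679 to 0.684 over the alternatives.

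**Figure D3:**
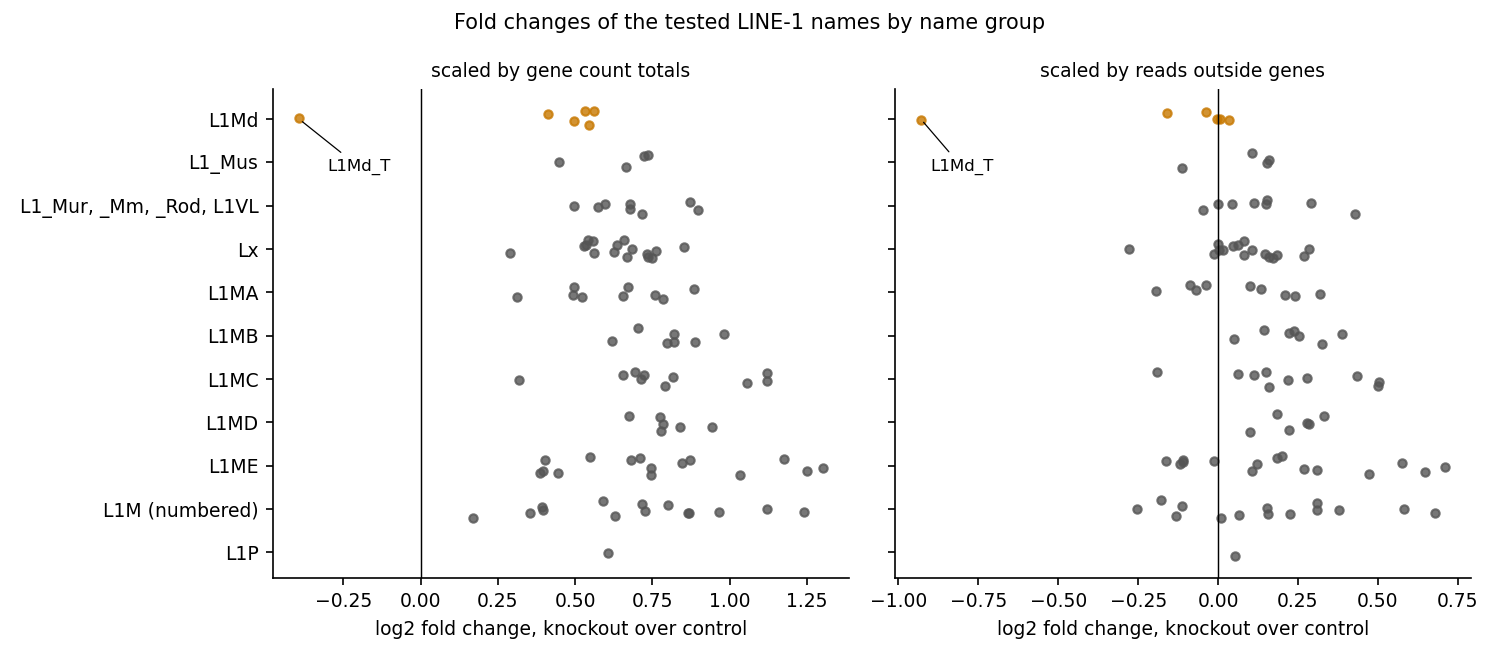
Log2 fold changes, knockout over control, of the 96 tested LINE-1 names by name group, scaled by gene count totals (left) and by reads outside genes (right); young L1Md names are in orange. On the left all points but L1Md_T are above 0; on the right 73 of 96 are above 0, against 51.2% of all repeat names, and L1Md_T is at -0.93.

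L1Md_T, the name of a subfamily with mobile copies, was the young name with a negative fold change. It had 298, 174 and 211 gene-scaled CPM in the knockouts, from 7439, 4846 and 5888 counts, against 352, 272 and 274 in the controls, from 10712, 8293 and 7600 counts. The highest knockout lay above 2 of the controls, so the groups overlapped. The log2 fold change was -0.39 ± 0.26 (SE), with an adjusted p of 0.308 by edgeR, and L1Md_T was the only tested LINE-1 name with a fold change below 0. Its sign was negative under all scalings and with any library left out, from -0.93 to -0.23.

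Set against reads outside genes, L1Md_T was lower in every knockout than in any control. Per 1000 reads outside genes it had 0.981, 1.16 and 0.716 counts in the knockouts, against 2.41, 1.69 and 1.36 in the controls. The nearest were knockout 2 and control 3, and the ratio of means was 0.525. In the edgeR fit with that scaling its log2 fold change was -0.93 ± 0.25, with an adjusted p of 0.418, which misses the threshold. The adjusted p of L1Md_T was 0.28 to 0.695 over the alternatives. The groups did not overlap for 11 LINE-1 names higher and 6 lower on this scale, against backgrounds of 9.11% and 6.75% of all names. Of the 6 young names, 2 were among those lower, L1Md_T and L1Md_F. L1Md_F had 0.0886, 0.0824 and 0.0860 in the knockouts, against 0.0936, 0.102 and 0.0917 in the controls. At an unadjusted p under 0.05, 3 LINE-1 names were higher (L1MD2, L1ME3 and L1_Mur1, against a background of 5.21%) and 2 lower (L1Md_T and Lx, or 2.08% of LINE-1 names, against 4.14%).

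The share of alignments that were not unique was also lower in knockouts than in controls. It was 20.9%, 18.2% and 20.3% in the knockouts, against 22.6%, 22.1% and 21.4% in the controls, with no overlap. Knockout 2, with the lowest share, had the highest L1Md_T of the knockouts per 1000 reads outside genes and the lowest in gene-scaled CPM. Reads that align to several places were left out of the gene counts, and how the repeat counts treated them was not examined. Young copies are the most alike. If such reads were left out there too, counts of L1Md names rest on the reads that tell copies apart. Rn45s took 3.73%, 4.24% and 2.06% of gene counts in the knockouts, against 8.05%, 4.70% and 3.98% in the controls. Its share overlapped between the groups, with control 1 highest and knockout 3 lowest, as for L1Md_T per 1000 reads outside genes. The part of the non-unique alignments or of Rn45s in the L1Md_T result was not tested. Knockout 2 had about the reads outside genes of control 1 (149824 against 146211 gene-scaled CPM), and its L1Md_T level was 174 against 352 gene-scaled CPM. Control 2, with 161469, had an L1Md_T level of 272. These are single embryos, set side by side after their values were seen, and they also differ in the non-unique share and in Rn45s.

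**Figure D4:**
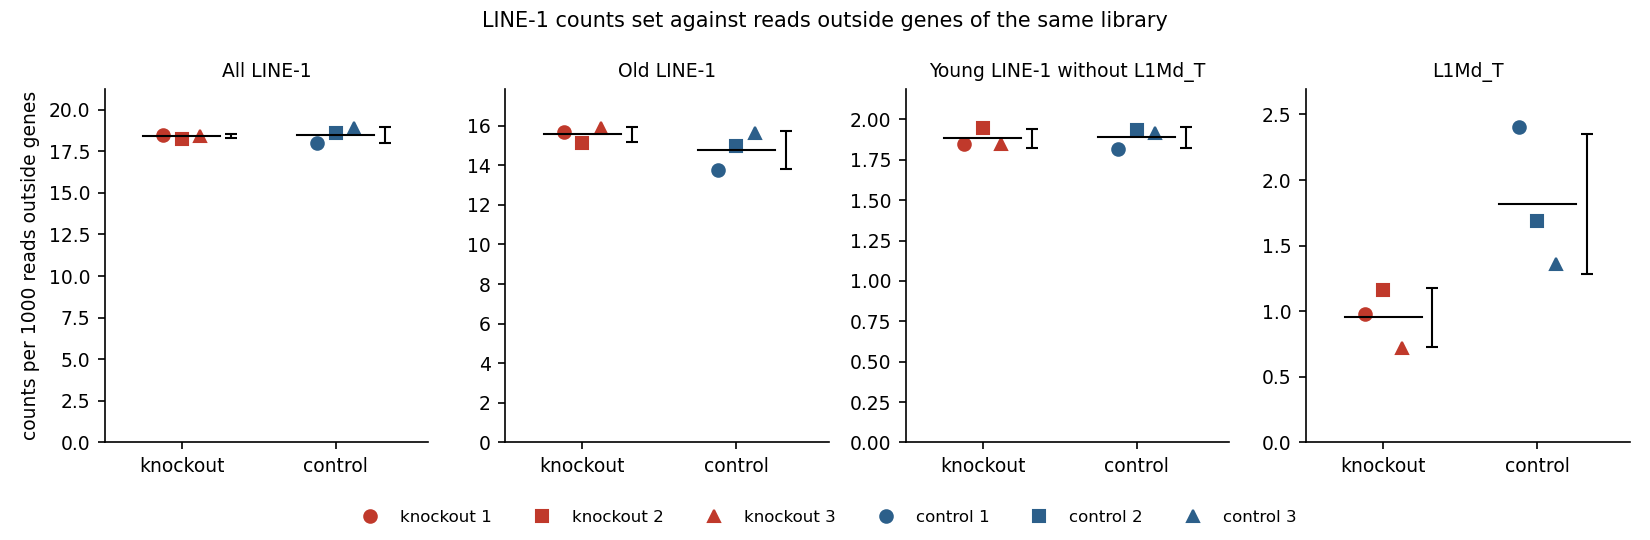
Counts per 1000 reads outside genes of the same library for all LINE-1 names, old names, young names without L1Md_T, and L1Md_T, in 3 knockout and 3 control embryos. Points are libraries, lines are means and bars are SD; the libraries differ little in the other panels, while L1Md_T is at 0.716 to 1.16 in knockouts and at 1.36 to 2.41 in controls.

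The other 5 young names had fold changes above 0 by gene totals, within the range of the old names (0.17 to 1.30 on the log2 scale). L1Md_F2, of the older F type, had 363, 184 and 349 gene-scaled CPM in the knockouts, against 168, 202 and 244 in the controls (log2 fold change 0.55 ± 0.30, adjusted p = 0.272 by edgeR). L1Md_A, of the A subfamily with mobile copies, had 115, 63.8 and 112 in the knockouts, against 54.5, 61.2 and 81.4 in the controls (0.56 ± 0.29, adjusted p = 0.272 by edgeR). For both, knockouts 1 and 3 were above every control and knockout 2 was within the range of the controls. L1Md_F3 had a log2 fold change of 0.50, L1Md_F of 0.41 and L1Md_Gf of 0.53, the last from 7 to 23 counts per library, which leaves its SE at 0.56. Scaled by reads outside genes, L1Md_A was at 0.04, L1Md_F2 at -0.0018, L1Md_F3 at -0.04, L1Md_F at -0.16 and L1Md_Gf at 0.01. The sign of the fold change of L1Md_F, L1Md_F2 and L1Md_F3 thus depends on the scaling.

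The ratio of young to old LINE-1 counts needs no library size. It was 0.181, 0.206 and 0.162 in the knockouts, against 0.307, 0.242 and 0.210 in the controls. All knockouts were below all controls, by 0.206 against 0.210 at the nearest, and the mean log2 difference was -0.46. Without L1Md_T, an alternative chosen after seeing the data, the ratio was 0.118, 0.129 and 0.117 in the knockouts, against 0.132, 0.129 and 0.123 in the controls. The groups then overlapped, and the log2 difference was -0.08. The ratio of L1Md_T alone to the old names was 0.0626, 0.0769 and 0.0451 in the knockouts, against 0.175, 0.113 and 0.0871 in the controls, a log2 difference of -0.99. With the old names restricted to L1M and L1P, the difference in the ratio of all young to old names was -0.48 and the groups overlapped.

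The make-up of the young counts shows the same. L1Md_T took 34.7%, 37.4% and 27.9% of young counts in the knockouts, against 57.0%, 46.6% and 41.5% in the controls, and no knockout reached a control. L1Md_F2 took 42.2%, 39.4% and 46.1% in the knockouts, against 27.2%, 34.5% and 37.0% in the controls. The shares sum to a whole, so a low share of L1Md_T raises the others. The ratio of L1Md_F2 to old counts was 0.0763, 0.0811 and 0.0746 in the knockouts, against 0.0834, 0.0834 and 0.0777 in the controls, with overlapping groups. Counts were summed over all copies of a name and not divided by their length, so levels of different names are not comparable with each other.

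**Figure D5:**
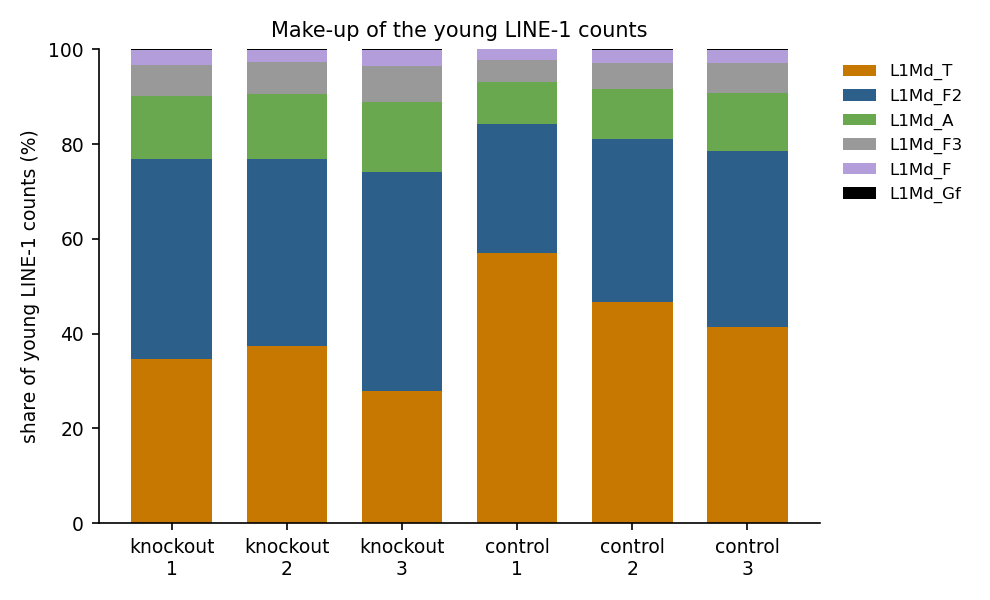
Share of each L1Md name in the young LINE-1 counts of each library, in percent, for 3 knockout and 3 control embryos. L1Md_T makes up 27.9% to 37.4% in the knockouts and 41.5% to 57.0% in the controls.

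Among the old names with a mean of at least 5 gene-scaled CPM, the 4 with the smallest p were higher in knockouts. Their log2 fold changes were 0.73 to 1.30, each with an adjusted p of 0.272 by edgeR. L1_Mur1, a name of murine LINE-1, had 44.2, 31.9 and 43.6 gene-scaled CPM in the knockouts, against 15.9, 21.0 and 27.5 in the controls (log2 fold change 0.90 ± 0.28, SE). Knockout 2 was above all controls here, although its old LINE-1 total was not. Per 1000 reads outside genes L1_Mur1 had 0.145, 0.213 and 0.148 in the knockouts, against 0.108, 0.13 and 0.137 in the controls, again without overlap. Lx3C had 40.7, 29.0 and 44.1 gene-scaled CPM in the knockouts, against 18.8, 21.8 and 26.4 in the controls (log2 fold change 0.76 ± 0.26), with all knockouts above all controls. Lx4A was at 0.73 ± 0.29 and L1ME3 at 1.30 ± 0.52, and both had knockout 2 within the range of the controls. The groups did not overlap in gene-scaled CPM for 3 LINE-1 names, L1_Mur1, Lx3C and L1MDb (the last named after its values were seen), against a background of 10.3% of all names, and for 0 lower names, against 0.586%.

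The old names with the most counts followed their class. Lx7 had 373, 239 and 383 gene-scaled CPM in the knockouts, against 187, 227 and 263 in the controls, and L1_Mus3 had 229, 103 and 219 against 92.0, 106 and 150. In both, knockout 2 was within the range of the controls. The log2 fold changes were 0.56 for Lx7, 0.63 for Lx8, 0.67 for L1_Mus3, 0.72 for L1_Mus2, 0.87 for L1_Mur3, 0.60 for L1VL4, 0.73 for L1M5, 0.59 for L1M4 and 0.63 for L1M2. L1P5 was at 0.61 with 239 counts in all, and L1PB4, with 28 counts, was too low to be tested.

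Lx had the smallest log2 fold change of the named old repeats. It had 186, 94.6 and 208 gene-scaled CPM in the knockouts, against 114, 136 and 150 in the controls, a log2 fold change of 0.29 ± 0.31. Per 1000 reads outside genes it had 0.613, 0.631 and 0.707 in the knockouts, against 0.781, 0.839 and 0.747 in the controls. All knockouts were below all controls on this scale, with a log2 fold change of -0.28 ± 0.10 and an adjusted p of 0.454 by edgeR. Its adjusted p was 0.018 to 0.919 over the alternatives. The lowest was that of edgeR by gene totals without knockout 2, where Lx was higher in knockouts (log2 fold change 0.57). L1_Mus1, at 0.45 by gene totals and -0.11 by reads outside genes, and L1VL2, at 0.50 and -0.05, also changed sign with the scaling.

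Genes known to silence, restrict or activate LINE-1 differed little between the groups. Of 41 such genes 36 were tested, and edgeR called 0, against a background of 1.51% of 15075 genes; 4 had an unadjusted p under 0.05, against 19.2% of all genes. DESeq2 also called 0, and the median log2 fold change was 0.03 against -0.0010 over all genes. Among 19 tested silencing genes 13 were above 0 with a median of 0.04, and among 14 tested restriction genes 7 were above 0 with a median of -0.02, against 49.7% of all genes above 0. The 3 activators Yy1, Runx3 and Sp1 had a median of 0.02.

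The 4 host genes with the smallest p were all slightly higher in knockouts. Ythdc1, a reader of methylated adenosine in RNA, had 145, 129 and 151 CPM in the knockouts, against 117, 121 and 131 in the controls (log2 fold change 0.21 ± 0.08, adjusted p = 0.215 by edgeR). Morc2a, an ATPase that works with the HUSH silencing complex, had 151, 128 and 148 CPM in the knockouts, against 120, 124 and 129 in the controls (0.20 ± 0.08, adjusted p = 0.233 by edgeR). In both, knockout 2 was within the range of the controls. The maintenance DNA methyltransferase Dnmt1 was at 0.17 ± 0.08, with 470, 441 and 471 CPM in the knockouts against 411, 388 and 426 in the controls and no overlap, and an adjusted p of 0.253 by edgeR. D14Abb1e, the files' name for the HUSH subunit Tasor, was at 0.20 ± 0.09 with an adjusted p of 0.255 by edgeR. The silencing gene Trim28, next by p and named after its values were seen, was lower in knockouts. It had 536, 611 and 552 CPM in the knockouts, against 666, 628 and 625 in the controls, without overlap. Its log2 fold change was -0.18 ± 0.08, with an adjusted p of 0.282 by edgeR. Without knockout 2, edgeR called Morc2a (0.26, adjusted p = 0.0379) and Ythdc1 (0.27, adjusted p = 0.0436) as higher, in a fit that called 7.55% of 15348 genes as higher.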

How the data were processed

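For each of the 6 libraries the authors deposited whole-number counts per gene symbol and per repeat name, without normalization. Per the submitters' processing notes, Trimmomatic, TopHat2, Bowtie2 and HTSeq were used with build mm9. Not given in the sources used here were versions, annotations, the strand setting and what the library codes in the deposited names mark; these begin alike within each group and cannot be told apart from genotype. Rows that name no feature entered no library size or test: reads outside genes were 9.79% to 18.3% of alignments and non-unique ones 18.2% to 22.6%.

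Repeat names were fitted together with edgeR 4.0.16 in R 4.3.3 (quasi-likelihood F test, robust, group as the only term, gene count totals as library sizes). filterByExpr (minimum count 10, minimum total 15) kept 853 of 1217 names, with a biological coefficient of variation of 30.7%. Genes (15075 of 23366 kept) were fitted with TMM. P-values were adjusted by Benjamini-Hochberg over all features tested, and an adjusted p under 0.05 was called. Sums over names have no p-value. Alternatives used other scalings, DESeq2 1.42.0, limma-voom 3.58.1, no filter, a covariate, a replicate block and each library left out. Leaving out L1Md_T, and the results on L1Md_T or all LINE-1 per read outside genes, were chosen after seeing the data. The simulated data on which the fits were tested had a lower spread than these data and larger fold changes than most names. They do not show what the fits can detect here. Groups and numbers came from sample titles, which do not give litters, so p-values measure the spread between these samples alone.

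Named were all L1Md names, the 3 most counted names of each other group (L1_Mus, other murine, Lx, L1M, L1P), up to 4 LINE-1 names of each sign with the smallest p and a mean of at least 5 gene-scaled CPM, called names, and the 4 host genes with the smallest p. Members and lists were chosen with earlier results of these data known.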

Additional observations from a re-analysis of the deposited data

How the results depend on the processing

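TMM factors of the gene counts, TMM on the repeat counts, totals without Rn45s, scaling by reads outside genes and no filter on low counts each gave 0 called LINE-1 names by edgeR, as did the main scaling by gene totals, limma-voom, DESeq2 and the replicate block. Over all repeat names, DESeq2 called 2 and the fit with reads outside genes as a covariate 13, of which 1 was LINE-1. The number of LINE-1 names at an unadjusted p under 0.05 was 10 by gene totals, against 11.6% of all names. Scaled by reads outside genes it was 5, against 5.21% of all names higher and 4.14% lower. It was 39 by DESeq2, against 23%, and 5 by limma-voom, against 6.68%. No filter gave 26 and the replicate block 29. No share over all names is given for either fit, so 26 and 29 cannot be read as a stronger LINE-1 effect. Same-numbered embryos had correlations of -0.347, 0.0845 and 0.501 between their deviations from the group means, so no pairing was assumed, and the block changed no other call. With each library left out in turn, called names ranged from 0 to 574 over all repeats and from 0 to 90 over LINE-1, LINE-1 names at an unadjusted p under 0.05 from 0 to 93, and called host genes from 0 to 2; in each case the highest value is that without knockout 2.

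Young counts differed by a log2 of 0.12 in gene-scaled CPM (0.49 without L1Md_T, -0.06 to 0.38 with a library left out) and of -0.38 per 1000 reads outside genes (-0.22 with L1_Mus names counted as young, -0.0053 without L1Md_T). The young to old ratio, at -0.46, was -0.081 without L1Md_T and stayed between -0.58 and -0.31 whichever library was left out. L1Md_T per 1000 reads outside genes stayed between -1.11 and -0.70.

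Signs of single names turned with the scaling. With TMM on the repeat counts, L1Md_F was at -0.14, L1Md_F3 at -0.025, L1_Mus1 at -0.094, L1VL2 at -0.030 and Lx at -0.26. Scaled by reads outside genes, L1Md_F was at -0.16, L1Md_F2 at -0.0018, L1Md_F3 at -0.039, L1_Mus1 at -0.11, L1VL2 at -0.048 and Lx at -0.28. With the covariate, L1Md_F was at -0.19, L1Md_Gf at -0.28, L1_Mus1 at -0.14, L1VL2 at -0.057, Lx8 at -0.050, Lx at -0.29, L1M4 at -0.12 and L1M2 at -0.037. The cause was not tested. With 3 libraries a group and 6 to 46520 counts per name over all libraries, small differences were not detectable. Uniquely placed reads alone may stand for the young copies.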

Other observations

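Grouped by name, the murine L1_Mur, L1_Mm, L1_Rod and L1VL repeats were the old name group in which the groups did not overlap when set against reads outside genes. They took 1.76, 1.67 and 1.71 counts per 1000 reads outside genes in the knockouts, against 1.43, 1.59 and 1.66 in the controls, a log2 difference of 0.14. The nearest were knockout 2 at 1.670 and control 3 at 1.663. Between these libraries L1_Mur1, a name of this group, differed by more, at 0.213 in knockout 2 and 0.137 in control 3. The separation thus rests on L1_Mur1. Of all single repeat names, 9.11% were higher in knockouts without overlap on this scale. In gene-scaled CPM the names of this group had 535, 250 and 505 in the knockouts, against 209, 257 and 335 in the controls, with overlap. Lx names, the group with the most counts, took 5.83, 6.02 and 6.05 per 1000 reads outside genes in the knockouts, against 5.41, 5.97 and 5.95 in the controls, with overlap.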
